A study of Mus musculus with 6 samples.

Results

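The proteasome genes described here were the 46 genes whose symbol begins with Psma, Psmb, Psmc, Psmd, Psme, Psmf or Psmg followed by a number, with a mean deposited count of at least 50, among the 46072 gene identifiers of the count table. Of the 54 rows that match this pattern, 4 with a hyphen in the symbol (pseudogenes by their names) and the inducible subunits Psmb8 and Psmb9 were left out by name. Psmc3ip and Psmb11 lay under the minimum count. Psmc3ip, with a mean count of 41.0, was the gene just outside the limit and Psma8, with 71.8, the gene just inside it. The symbols cover more than the subunits of the particle. By their known roles, 16 of the 46 genes encode the 20S core, 17 the 19S cap, 4 the PA28 activators and 7 assembly chaperones, and the remaining 2 are the activator Psme4 and the regulator Psmf1.

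The libraries were made from splenic monocytes of female C57BL/6 mice, aged 8 to 10 weeks by the study's methods. The Con group (n = 3) received water and the Van group (n = 3) received 2 mg of vancomycin per day, given as 2 oral gavages of 1 mg. Gavage lasted 6 days in both groups and was followed by rest without antibiotic, given as 8 days for the sequenced mice and as 6 to 8 days in the general protocol and the sample records. The genotype is given as C57BL/6 for both groups, with no altered allele. The study used the comparison to ask how gene expression in these cells differs after vancomycin. The monocytes were enriched by magnetic removal of other cells, so a library holds whatever was not removed, and each sample record is one replicate of its group. The methods give 3 mice per group, which equals the number of libraries, and no source used here ties each library to a single mouse. Spleens were combined before monocyte isolation for the stimulation assays, and whether the sequenced monocytes were pooled in this way is not given in the sources used here. If libraries share a source, the p-values measure only the spread between these samples.

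The total deposited count was between 43383919 and 61834407 per library. The proteasome genes took 0.309%, 0.303% and 0.309% of it in Con and 0.291%, 0.294% and 0.311% in Van, in replicate order. Genes of the mitochondrial genome took 2.56%, 2.81% and 2.65% in Con and 1.98%, 2.12% and 2.32% in Van, without overlap. The part of this difference in the values of the proteasome genes was not tested. The 8 monocyte markers checked were all detected, with a summed level of 8783 to 9373 CPM (counts divided by the TMM-scaled library size) in Con and 7644 to 8994 CPM in Van, and 6 of the 8 had a negative log2 fold change. Ccr2 and Fcgr1 were lower in Van in edgeR's test, and DESeq2 also called Itgam lower and Cd14 higher (log2 fold change 0.28). The 7 erythroid markers summed to 62.8 to 127 CPM in Con and 214 to 473 CPM in Van, all 7 were higher in Van, and 4 of them (Hba-a1, Hbb-bt, Hbb-bs and Alas2) passed the test. The 4 red pulp macrophage markers summed to 849 to 1030 CPM in Con and 1165 to 1414 CPM in Van, all higher in Van, and 0 of them passed edgeR's test, with 3 at an unadjusted p under 0.05 and 1 called by DESeq2. The other 9 marker lists (B, T, NK, plasma, dendritic and plasmacytoid dendritic cells, neutrophils, eosinophils and platelets) summed to between 1.06 and 134 CPM in any library, with Ly6g at 0 throughout. Of their genes, edgeR called Klrk1 (1 of 3 NK markers tested) and Clec9a (1 of 5 dendritic cell markers), both lower, and DESeq2 also called Xcr1, Sdc1 and Siglech lower. In these lists Cd3e, Klrb1c and Flt3 had positive log2 fold changes and were called by neither. The part of the called markers in the values of the proteasome genes was not tested. In bulk RNA, fewer cells of a type and less RNA per cell cannot be told apart.

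The proteasome degrades proteins that carry ubiquitin chains. Its 20S core is a barrel of stacked rings, in which the outer alpha rings form the gate and the inner beta rings carry the cutting sites. The 19S cap binds the ubiquitin chain, removes it, unfolds the protein with a ring of ATPases and feeds it into the core, and core and cap together form the 26S proteasome. The core can also be opened by other caps that use no ATP, namely the PA28 complexes and the PA200 protein encoded by Psme4. In monocytes and other cells that present antigen, interferon gamma induces the alternative catalytic subunits Psmb8, Psmb9 and Psmb10 together with PA28 alpha and beta, and the resulting immunoproteasome alters which peptides are offered on MHC class I.

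Almost all proteasome genes were well expressed in these monocytes, and their order was nearly the same in every library. They had been chosen by a mean count of at least 50 in these same libraries, which left out Psmc3ip and Psmb11. Levels between genes were compared as FPKM (fragments per unit of transcript length and of library size), and 38 of the 46 genes had a mean of at least 10 FPKM over the 6 libraries. Of the 46 genes, 20 lay in the top 10% of all genes tested by mean FPKM. The lowest Spearman correlation of the 46 levels between any of the 15 pairs of libraries was 0.985, a value across genes, which are not independent replicates. The median coefficient of variation of a proteasome gene within a group was 5.90%.
The highest level was that of Psme1, which encodes PA28 alpha, at 172, 158 and 192 FPKM in the Con libraries and 159, 131 and 157 FPKM in the Van libraries, given here and throughout in the order of the replicate numbers. Psma7, an alpha ring subunit, followed with a mean of 136 FPKM, and Psme2, which encodes PA28 beta, with 131 FPKM. The libraries of these 3 genes overlapped, so their order was not resolved. Every library of Psme2 lay above every library of Psmb1, the beta ring subunit that came next with a mean of 78.4 FPKM. Such a gap was found at 3 of the 45 steps in the order. The others were between the lid subunit Psmd12 (15.7 FPKM) and the chaperone Psmd10 (9.22 FPKM) and between the chaperone Psmg1 (4.42 FPKM) and Psma8.
The classes sat at different heights of this order. The 16 core genes had a median of 62.0 FPKM and the 17 cap genes a median of 28.4 FPKM, with a range of 15.7 to 70.6 FPKM in the cap. Psma5, the lowest core gene apart from Psma8, had 35.2 FPKM, and 5 cap genes exceeded it (Psmd8, Psmd4, Psmd2, Psmc3 and Psmc4). The assembly chaperones, which are not part of the finished particle, had a median of 5.52 FPKM, and Psmg4 was the highest of them at 18.5 FPKM. Psma8, an alpha ring subunit known from the testis that can take the place of Psma7, was the lowest gene, at 0.662, 0.841 and 0.629 FPKM in Con and 0.535, 0.543 and 0.722 FPKM in Van. It had between 54.2 and 103 deposited counts per library.

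**Figure D1:**
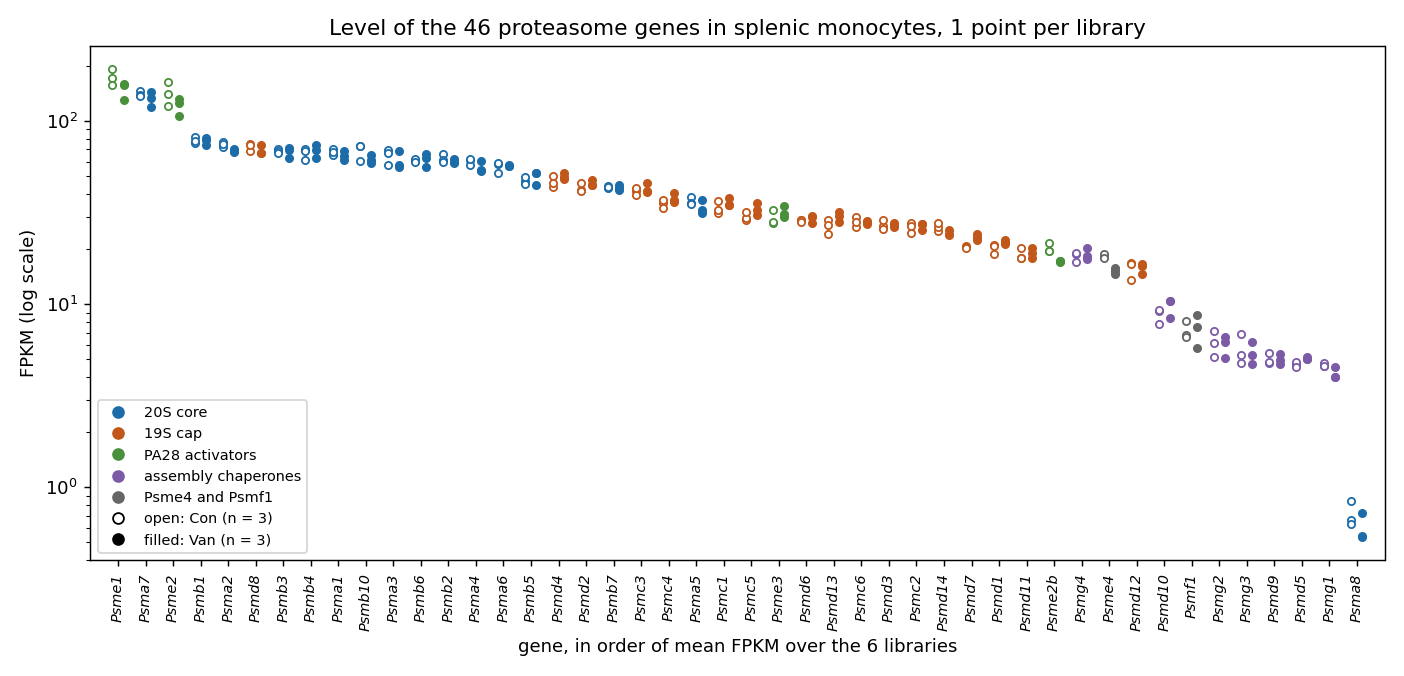
FPKM of each of the 46 proteasome genes on a log axis, with 1 point per library (open, Con, n = 3, and filled, Van, n = 3) and colours for the classes. Psme1, Psma7 and Psme2 lead above 100 FPKM, most core genes lie above most cap genes, the chaperones lie between 3.99 and 20.4 FPKM, and Psma8 stands alone under 1 FPKM.

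Between Van and Con, the proteasome genes differed little. All 46 genes passed the filter on low counts, and 0 reached an adjusted p of 0.05 or less in edgeR's quasi-likelihood test, against 2.00% of the 16138 genes tested. DESeq2's Wald test called 1 of them, Psme4, against 7.34% of the 13156 genes to which it gave an adjusted p, and limma on log2(FPKM + 1) values called 0, against 0.249% of the 16057 genes it tested. Psme4 was also the one proteasome gene called with DESeq2's filter set for 0.05 (8.26% of all genes called), in edgeR with at least 10 counts in every library (2.70%) and in edgeR with the counts put on the scale of fragments (2.66%). An unadjusted edgeR p under 0.05 was found for Psme4, Psme2b and Psmd7, which is 6.52% of the proteasome genes, against 16.5% of all genes tested. The Con and Van libraries did not overlap for 7 of the 46 genes (15.2%), against 22.5% of all genes tested. Of these, Psma2, Psmd14, Psme2b, Psme4 and Psmg1 were lower in Van, a direction without overlap for 11.0% of all genes, and Psmd4 and Psmd7 were higher, as were 11.5% of all genes.
By sign of the edgeR log2 fold change, 21 proteasome genes were higher in Van and 25 lower, where 49.6% of all genes tested were higher. Without Van replicate 3, 13 were higher. The median log2 fold change was -0.02 over the proteasome genes and -0.0014 over all genes tested. It was -0.05 without Van replicate 3 and 0.0074 without Van replicate 1. The median size of the log2 fold change, without regard to sign, was 0.07 for the proteasome genes and 0.15 for all genes, with median standard errors of 0.07 and 0.13. The proteasome genes were chosen with a mean count of at least 50, and they were not compared with other genes of like count. For 45 of the 46 genes, the 95% interval of the log2 fold change lay within 0.5 on either side of 0, as it did for 8304 of the 16138 genes tested. The exception was Psma8, with the fewest counts and an interval of -0.86 to 0.34. Leaving out each library in turn moved the log2 fold change of 39 of the 46 genes by more than 1.5 times in at least one of the 6 fits. The other 7 (Psma2, Psmd4, Psmd7, Psmd14, Psme2b, Psme4 and Psmg1) were the genes without overlap.

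**Figure D2:**
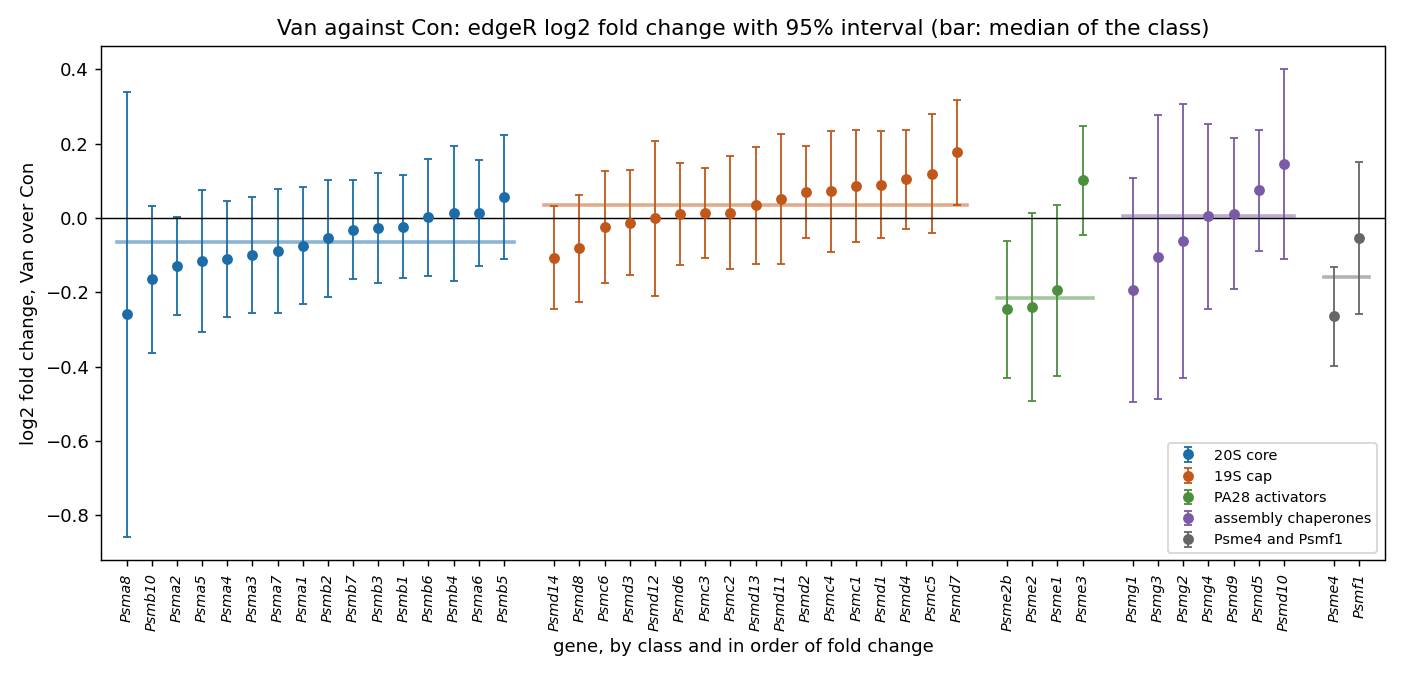
Log2 fold change (Van over Con) from edgeR with its 95% interval for each of the 46 genes, by class, with a bar at the median of the class. The core median lies at -0.06, the cap median at 0.03 and the PA28 median at -0.22, and the intervals of Psme4, Psme2b and Psmd7 leave out 0.

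Psme4 showed the clearest difference among the 46 genes. It encodes PA200, a large nuclear activator that docks on the end of the 20S core and is known for the degradation of acetylated histones. Psme4 lies on the forward strand of chromosome 11 of GRCm38, from 30771726 to 30880361, and its exons overlap no other gene in GENCODE M21. Its level was 135, 135 and 126 CPM in the Con libraries and 112, 105 and 111 CPM in the Van libraries. Every Van library was thus below every Con library. The mean was 132 ± 5.30 CPM in Con against 110 ± 3.92 CPM in Van (SD, n = 3 each), a fold of 0.832 with a 95% interval of 0.759 to 0.913. The edgeR log2 fold change of -0.26 (standard error 0.06) had a p of 0.00165 and an adjusted p of 0.0621, just outside the threshold. The adjusted p was 0.00232 with DESeq2, 0.0478 in edgeR when only genes with at least 10 counts in every library were tested, and 0.0496 in edgeR on the fragment scale. It was 0.113 with limma on log2(FPKM + 1) values and lay between 0.105 and 0.234 when each library in turn was left out of the edgeR fit. The log2 fold change stayed between -0.29 and -0.23 in those 6 fits.
The start of Psme4 is shown because it holds the one match to a regulatory motif found for the gene. The 280 bases from 250 before to 30 after the RefSeq start site, chr11:30771525-30771804 on the forward strand of GRCm38.p6, are printed 5' to 3', with the match to the core of the antioxidant response element (TGACNNNGC, here on the opposite strand) in capitals. Its first base lies at position -7 from the RefSeq start site. GENCODE M21 starts the gene at 30771726, which is within the printed bases and upstream of the match.
Psme4 promoter: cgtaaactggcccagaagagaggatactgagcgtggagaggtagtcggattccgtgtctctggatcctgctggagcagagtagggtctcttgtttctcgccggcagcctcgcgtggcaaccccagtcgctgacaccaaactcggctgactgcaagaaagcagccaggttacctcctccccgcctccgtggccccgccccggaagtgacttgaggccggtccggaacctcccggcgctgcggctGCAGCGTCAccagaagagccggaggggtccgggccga
This element is the one through which the factors Nfe2l1 and Nfe2l2 act, and Nfe2l1 is the known driver of proteasome genes when proteasome activity is short. A window of 300 bases, from 250 before to 50 after the start site, was given for 38 of the 46 genes in the RefSeq table, and both strands were searched. The core was matched in 6 of the 38 genes (Psmb5, Psmb6, Psmc6, Psmd12, Psmd9 and Psme4), or 15.8%, and in 12.4% of all 32851 windows. These genes had log2 fold changes from -0.26 to 0.06. The CCAAT box, bound by NF-Y, was matched in 12 of the 38 genes (31.6%) and in 37.4% of all windows. Here and below, a proteasome gene counted as matched if any of its windows matched, and the 38 genes had 41 windows. The share over all windows counts single windows, so the shares are not fully alike. Such a match is a run of letters and no measured binding.
Psmf1, which encodes the regulator PI31 that can inhibit the core in the test tube, was the other gene outside the main classes. Its mean was 27.7 ± 2.80 CPM in Con against 26.7 ± 1.37 CPM in Van (SD, n = 3 each), a log2 fold change of -0.05 with overlapping libraries.

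Among the PA28 activators, alpha and beta had negative log2 fold changes and gamma a positive one. edgeR called 0 of the 4 genes, against 2.00% of all genes tested. PA28 alpha (Psme1) and beta (Psme2) form one mixed ring that opens the core and is induced by interferon gamma, while gamma (Psme3) forms a ring of its own in the nucleus. Psme1, on chromosome 14 from 55578123 to 55581529, was at 224, 194 and 229 CPM in Con and 201, 161 and 203 CPM in Van. Psme2, on the same chromosome from 55587441 to 55591113, was at 164, 127 and 148 CPM in Con and 131, 108 and 134 CPM in Van. In both genes Con replicate 2 lay within the range of the Van libraries and Van replicate 2 was the lowest library. The edgeR log2 fold changes were -0.19 (standard error 0.10, adjusted p = 0.387) for Psme1 and -0.24 (standard error 0.11, adjusted p = 0.332) for Psme2. Both were negative in all 6 fits that left out one library. Without Con replicate 1, Psme2 was -0.15. Without Van replicate 2, Psme1 and Psme2 were -0.09 and -0.14, and the median of the 4 PA28 genes was -0.12 in place of -0.22.
Psme3, on chromosome 11 from 101316213 to 101323537, was at 86.6, 87.1 and 97.2 CPM in Con and 93.9, 98.5 and 98.1 CPM in Van. The groups overlapped through Con replicate 3, and the log2 fold change was 0.10 (standard error 0.07, edgeR adjusted p = 0.50), or 0.16 without that library. The distance between gamma and the alpha and beta pair can be read within each library. The log2 CPM of Psme3 minus the mean log2 CPM of Psme1 and Psme2 was -1.15, -0.85 and -0.92 in Con and -0.79, -0.42 and -0.75 in Van, without overlap. Taken singly, 22.5% of all genes tested did not overlap between the groups. Against the mean log2 CPM of the 20S genes, the alpha and beta pair stood at 1.63, 1.37 and 1.63 in Con. In Van the pair stood at 1.54, 1.23 and 1.42, and the groups overlapped. In FPKM, Psme1 was 6.18, 5.62 and 5.89 times Psme3 in Con and 5.32, 3.82 and 5.03 times Psme3 in Van. This ratio had means of 5.90 ± 0.281 and 4.72 ± 0.796 (SD, n = 3 each), with a p of 0.1 in an exact two-sided permutation test, the smallest that 3 libraries against 3 allow, and 0.3 after Benjamini-Hochberg adjustment over the 6 ratios computed. The ratio of Psme1 to Psme2 was 1.24 ± 0.168 in Con and 1.23 ± 0.0348 in Van (SD, n = 3 each, exact permutation p = 1).

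**Figure D3:**
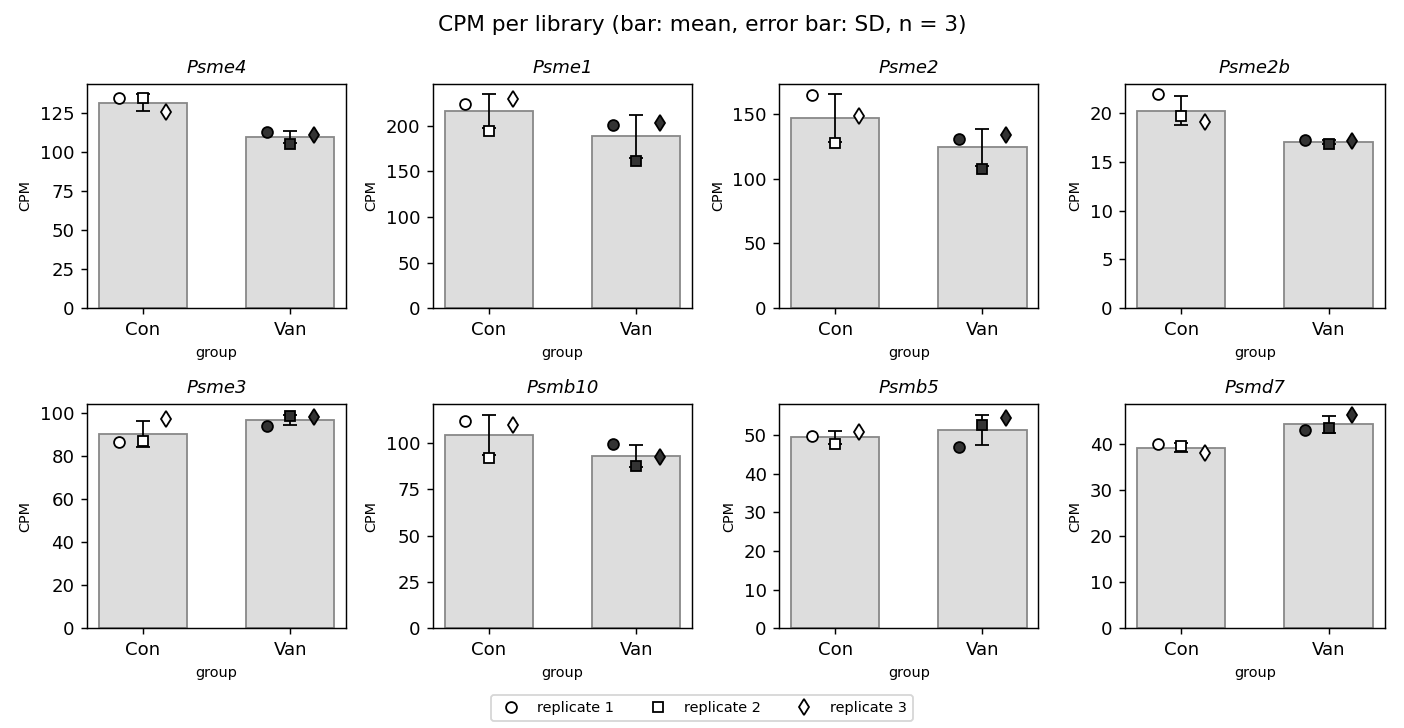
CPM of 8 proteasome genes in each library (open, Con, and filled, Van, with a symbol for each replicate number), with bars at the mean and error bars of 1 SD (n = 3), on axes that start at 0. The Van points lie below all Con points for Psme4 and Psme2b and above them for Psmd7, and the groups overlap for Psme1, Psme2, Psme3, Psmb10 and Psmb5.

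Psme2b is a copy of Psme2 without introns on the reverse strand of chromosome 11, from 48945354 to 48946190, where its 837 exonic bases fill the locus. It was at 21.9, 19.7 and 19.1 CPM in Con and 17.3, 16.8 and 17.1 CPM in Van, with every Van library below every Con library. Its edgeR log2 fold change was -0.25 (standard error 0.08) with an adjusted p of 0.177. The coding sequences of Psme2 and Psme2b are each 717 bases long in GENCODE M21 and differ at 5 positions, an identity of 99.3%. A stretch of 60 bases, coding bases 484 to 543, is shown because it holds 3 of these positions, which are in capitals, and shows how few bases can assign a read to one copy.
Psme2: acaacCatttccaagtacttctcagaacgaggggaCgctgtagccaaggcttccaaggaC
Psme2b: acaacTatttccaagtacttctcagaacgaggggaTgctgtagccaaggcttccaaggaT
How reads that align to both copies were divided is not given in the sources used here, so the values of the pair are uncertain between them. The FPKM of Psme2b was 0.144 ± 0.0147 of that of Psme2 in Con and 0.143 ± 0.0169 in Van (SD, n = 3 each, exact permutation p = 0.8). With the counts of both copies added, the edgeR log2 fold change was -0.24 (adjusted p = 0.292).
The start of Psme1 is shown beside that of Psme4 because it holds the core letters bound by interferon regulatory factors (GAAANNGAA, here on the opposite strand, in capitals), from position 11 after the start site. The window is chr14:55578244-55578523 on the forward strand of GRCm38.p6, 280 bases printed 5' to 3'. Positions count from the RefSeq start site. GENCODE M21 starts the gene at 55578123, before this window, so by that annotation all of the printed bases lie within the gene.
Psme1 promoter: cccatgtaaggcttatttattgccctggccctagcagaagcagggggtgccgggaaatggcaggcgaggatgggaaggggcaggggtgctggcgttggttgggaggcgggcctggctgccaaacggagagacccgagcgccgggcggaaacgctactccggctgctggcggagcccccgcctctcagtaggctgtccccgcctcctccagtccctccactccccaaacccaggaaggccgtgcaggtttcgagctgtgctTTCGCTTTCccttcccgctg
These letters were matched in 7 of the 38 proteasome genes with a window (Psmb3, Psmb4, Psmc2, Psmd4, Psmd9, Psme1 and Psmg4), or 18.4%, and in 8.56% of all windows. The other 6 had log2 fold changes between -0.03 and 0.10. The letters TTCNNNGAA, bound by STAT factors, were matched in Psmd2 and Psmg1, 5.26% of the genes with a window, and in 8.30% of all windows.

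In the 20S core, 12 of 16 genes were lower in Van, 0 called by edgeR and 0 at an unadjusted p under 0.05. Over all genes tested, 49.6% were higher, 2.00% were called and 16.5% had an unadjusted p under 0.05. The core as a class was not tested. Its median log2 fold change was -0.06, beside -0.0014 over all genes tested. Within the core, the alpha ring was lower for 7 of 8 genes with a median of -0.10, and the beta ring for 5 of 8 with a median of -0.03. The number of core genes lower in Van was 10 without Van replicate 1 and 15 without Van replicate 3, and in the beta ring these numbers were 3 and 7. Of the alpha subunits, which build the outer ring and its gate, Psma2 was at 87.7, 82.1 and 82.7 CPM in Con and 76.3, 75.2 and 79.4 CPM in Van, without overlap (log2 fold change -0.13, standard error 0.06, edgeR adjusted p = 0.315). Psma1 (-0.07), Psma3 (-0.10), Psma4 (-0.11), Psma5 (-0.12) and Psma7 (-0.09) overlapped between the groups, as did Psma6 (0.01). Without Van replicate 3, Psma1 was -0.13, Psma3 -0.16, Psma4 -0.18, Psma5 -0.19 and Psma7 -0.15. Without Van replicate 2, Psma1 was -0.02, Psma3 -0.05 and Psma5 -0.06, and Psma7 was -0.03 without Van replicate 1. Psma8 had a log2 fold change of -0.26 with a standard error of 0.26 on 1.35, 1.72 and 1.25 CPM in Con and 1.08, 1.08 and 1.45 CPM in Van. The log2 fold change became -0.11 without Con replicate 2, its highest library, and -0.42 without Van replicate 3.
The lowest values of the core lay in a pair of the Van libraries. Among the 16 core genes, Van replicate 2 was the lowest library for 8 and Van replicate 1 for 7, and Con replicate 1 was the highest for 8. Over all genes tested, each library was the lowest for 15.0% to 17.8% of the genes. Van replicate 3 was the lowest for 0 of the core genes, and as the median deviation from each gene's mean over the 6 libraries it stood at 0.06 on the log2 scale, beside -0.08 and -0.06 in Van replicates 1 and 2 and 0.06, 0.03 and -0.0009 in the Con libraries. The median log2 fold change of the core was -0.10 without Van replicate 3 and -0.04 without Van replicate 2 or Van replicate 1.
The catalytic subunits gave no common direction. Psmb5, the chymotrypsin-like site, was at 49.7, 47.6 and 50.8 CPM in Con and 46.9, 52.7 and 54.4 CPM in Van (log2 fold change 0.06, standard error 0.07). Its log2 fold change ranged from 0.01 without Van replicate 3 to 0.12 without Van replicate 1. Psmb6, the caspase-like site, was at 59.3, 60.1 and 56.4 CPM in Con and 54.1, 61.7 and 60.4 CPM in Van, with a log2 fold change of 0.0018, whose sign turned under 6 of the alternatives. Psmb7, the trypsin-like site, was at 62.1, 59.8 and 59.7 CPM in Con and 58.1, 57.9 and 61.6 CPM in Van (-0.03, standard error 0.06, and -0.06 without Van replicate 3). The edgeR adjusted p was 0.777, 0.995 and 0.855 for these 3 genes, and the 95% interval was -0.11 to 0.22 for Psmb5, -0.16 to 0.16 for Psmb6 and -0.17 to 0.10 for Psmb7. Psmb10, the inducible subunit that takes the place of Psmb7, was at 112, 92.0 and 109 CPM in Con and 99.4, 87.4 and 92.6 CPM in Van, for which the log2 fold change was -0.17 (standard error 0.09, edgeR adjusted p = 0.394), and -0.25 without Con replicate 2. The beta subunits without a cutting site, Psmb1 (-0.02), Psmb2 (-0.05), Psmb3 (-0.03) and Psmb4 (0.01), had log2 fold changes near 0.
Psmb8 and Psmb9, which were left out of the list, had means of 217 ± 20.9 and 103 ± 14.3 CPM in Con against 188 ± 18.4 and 86.1 ± 6.50 CPM in Van (SD, n = 3 each), log2 fold changes of -0.20 and -0.25 (edgeR adjusted p = 0.326 and 0.277). The log2 fold change of Psmb8 was -0.12 without Van replicate 2, and that of Psmb9 was -0.14 without Con replicate 1. Set against the constitutive subunit each replaces, the FPKM ratio of Psmb8 to Psmb5 was 2.32 ± 0.165 in Con and 1.96 ± 0.309 in Van, that of Psmb9 to Psmb6 was 0.964 ± 0.149 and 0.821 ± 0.112, and that of Psmb10 to Psmb7 was 1.57 ± 0.148 and 1.44 ± 0.109 (SD, n = 3 each). Each ratio had a lower mean in Van with overlapping libraries (exact two-sided permutation p = 0.2, and 0.3 after adjustment over the 6 ratios).

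In the 19S cap, 12 of 17 genes were higher in Van, where 49.6% of all genes tested were higher. edgeR called 0 of the 17, against 2.00% of all genes. Psmd7 had an unadjusted p under 0.05, which is 5.88% of the cap, against 16.5% of all genes. Neither the cap as a class nor its difference from the core was tested. The median log2 fold change of the cap was 0.03. It was -0.0029 without Van replicate 3, when 8 of the 17 were higher, and 0.06 without Con replicate 2. Psmd7, a structural partner of the deubiquitinase in the lid, is on chromosome 8 from 107580381 to 107588464. It was at 40.1, 39.6 and 38.1 CPM in Con and 43.1, 43.6 and 46.5 CPM in Van, with every Van library above every Con library. edgeR gave it an adjusted p of 0.207 for a log2 fold change of 0.18 (standard error 0.06), which lay between 0.14 and 0.20 when each library was left out in turn. Psmd14, the deubiquitinase itself, was at 45.0, 47.7 and 48.6 CPM in Con and 43.3, 44.7 and 43.3 CPM in Van. Its libraries did not overlap, in the direction opposite to Psmd7 (log2 fold change -0.11, standard error 0.06, edgeR adjusted p = 0.433).
The other lid genes, which hold the lid together, had log2 fold changes of -0.01 for Psmd3, 0.01 for Psmd6, -0.08 for Psmd8, 0.05 for Psmd11, -0.0012 for Psmd12 and 0.03 for Psmd13, which was 0.14 with limma on log2(FPKM + 1) values. Over all 8 lid genes, 4 were higher and 4 lower, and 1 was higher without Van replicate 3.
In the base of the cap, 8 of 9 genes were higher in Van, and 7 to 9 when one library was left out. The scaffolds Psmd1 (0.09) and Psmd2 (0.07) and the ubiquitin receptor Psmd4 (0.10) were all higher. Psmd4 was at 82.0, 81.8 and 86.8 CPM in Con and 88.3, 87.3 and 93.6 CPM in Van, without overlap (standard error 0.06, edgeR adjusted p = 0.432). Of the 6 ATPases, which form the unfolding ring, Psmc5 had the largest log2 fold change, 0.12 (standard error 0.07, edgeR adjusted p = 0.452), at 46.0, 47.3 and 49.8 CPM in Con and 48.5, 55.3 and 51.7 CPM in Van. Without Van replicate 2 the log2 fold change of Psmc5 was 0.07. Psmc1 (0.09), Psmc2 (0.01), Psmc3 (0.01) and Psmc4 (0.07) were higher and Psmc6 (-0.02) lower, each with overlapping libraries. When one library was left out, Psmc1 lay between 0.05 and 0.14 and Psmc4 between 0.02 and 0.12, and Psmc2, Psmc3 and Psmc6 took either sign.
The distance between cap and core was read within each library. The mean log2 CPM of the 19S genes minus that of the 20S genes was -0.04, 0.04 and 0.08 in the Con libraries and 0.16, 0.17 and 0.07 in the Van libraries. Van replicate 3 lay within the Con range, and the groups overlapped. Without Psma8, whose low level sets much of the core's mean, the values were -0.40, -0.30 and -0.29 in Con and -0.22, -0.21 and -0.29 in Van, and Van replicate 3 again overlapped with Con.

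**Figure D4:**
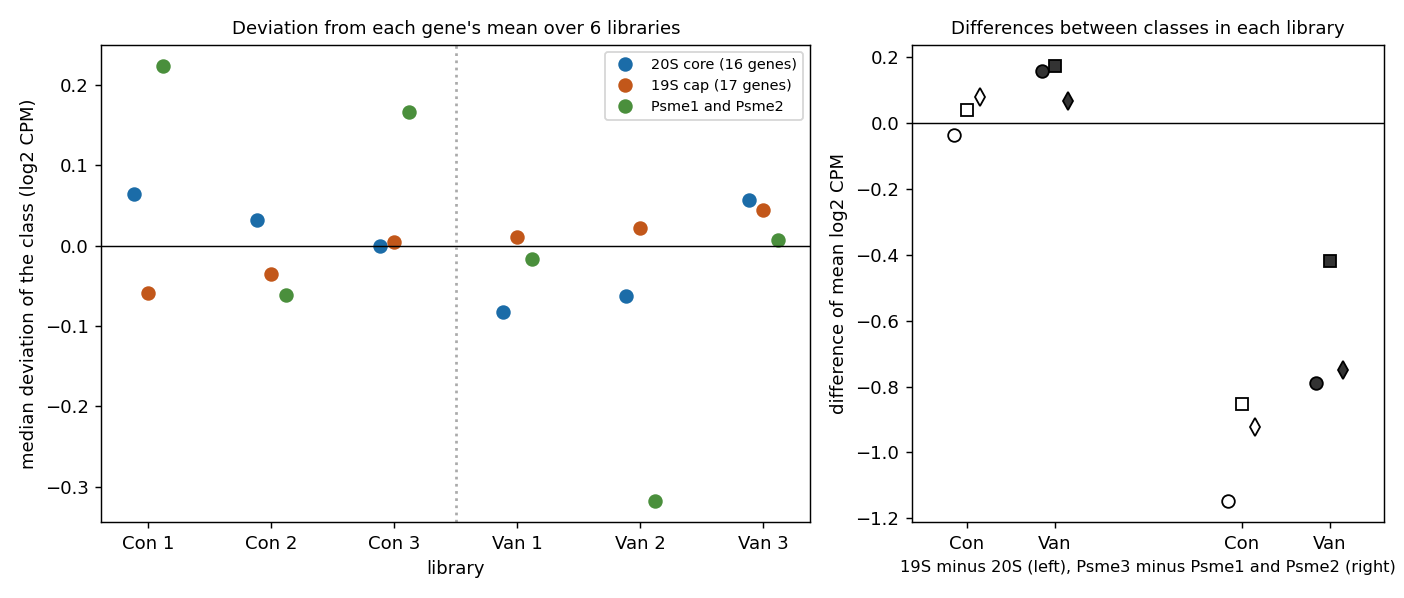
Left, the median deviation of each class from the genes' own means over the 6 libraries, in log2 CPM, for each library, and right, the difference of mean log2 CPM between classes in each library (open, Con, and filled, Van, n = 3 each, with a symbol for each replicate number). The core lies above the cap in Con replicates 1 and 2 and Van replicate 3 and below it in Con replicate 3 and Van replicates 1 and 2, the cap minus core difference overlaps between the groups, and the difference of Psme3 from Psme1 and Psme2 does not.

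Of the 7 assembly chaperones, 4 were higher in Van (49.6% of all genes tested), 3 were lower, and edgeR called 0 (2.00%). Those of the base of the 19S cap were Psmd5 (log2 fold change 0.07), Psmd9 (0.01) and Psmd10 (0.14). Psmd10, also known as gankyrin, was at 13.4, 15.7 and 15.6 CPM in Con and 14.3, 17.4 and 17.7 CPM in Van (standard error 0.11, edgeR adjusted p = 0.592). Leaving out Con replicate 1 made its log2 fold change 0.07, leaving out Van replicate 3 made it 0.09, and leaving out Van replicate 1 made it 0.24. Of those of the 20S core, Psmg1 was at 5.57, 5.82 and 5.41 CPM in Con and 4.56, 4.73 and 5.41 CPM in Van. Con replicate 3 and Van replicate 3 were equal to 3 digits, with the Van library the lower (log2 fold change -0.19, standard error 0.13, edgeR adjusted p = 0.529). Its partner Psmg2 (-0.06) and the pair Psmg3 (-0.10) and Psmg4 (0.0045) overlapped between the groups, with standard errors of 0.16, 0.17 and 0.11.

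The other genes of the ubiquitin and proteasome pathway were followed in a list of 43 genes, of which 42 were found and tested. edgeR called 0 of them, against 2.00% of all genes tested. An unadjusted edgeR p under 0.05 was found for 9 (21.4%), against 16.5% of all genes, and 28 (66.7%) were higher in Van, against 49.6%. DESeq2 called 3 (Adrm1, Ubqln1 and Nfe2l2), where it called 7.34% of all genes to which it gave an adjusted p. For these 42 genes the log2 fold change had a median of 0.05, beside -0.0014 over all genes tested. By role, the median was 0.04 for the 8 further parts and cofactors of the 26S particle, 0.05 for the 6 genes of ubiquitin and its activating enzymes, 0.05 for the 13 shuttle and p97 genes, 0.12 for the 7 transcriptional regulators, 0.09 for the 6 peptidases that trim the products, and -0.23 for Psmb8 and Psmb9. Nfe2l1, the driver of proteasome genes named above, was at 123, 110 and 125 CPM in Con and 132, 136 and 122 CPM in Van (log2 fold change 0.12, standard error 0.07, edgeR adjusted p = 0.439, and 0.07 without Con replicate 2, whose level was the lowest). Nfe2l2, the regulator of the antioxidant response, was at 341, 306 and 298 CPM in Con and 291, 239 and 241 CPM in Van, without overlap. Its log2 fold change was -0.29 (standard error 0.09), with an adjusted p of 0.151 in edgeR and 0.0326 in DESeq2. Adrm1, a ubiquitin receptor of the cap, had a mean of 57.7 ± 1.36 CPM in Con against 66.5 ± 1.68 CPM in Van (SD, n = 3 each), a log2 fold change of 0.20 (adjusted p = 0.115 in edgeR and 0.0364 in DESeq2). In FPKM, Adrm1 was at 26.5, 29.2 and 28.3 in Con and 28.1, 30.3 and 33.1 in Van, with overlap, and limma on log2(FPKM + 1) values gave 0.10 (adjusted p = 0.595). Ubqln1, a shuttle that carries ubiquitinated proteins to the cap, was at 130 ± 1.41 and 147 ± 1.01 CPM (log2 fold change 0.18, adjusted p = 0.120 in edgeR and 0.0250 in DESeq2). Adrm1 and Ubqln1 were named after their values were seen.

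Some values could be mixed with those of other genes. The 46 genes lie on 16 chromosomes of GRCm38. In GENCODE M21, 12 of them have exons that overlap those of another gene, mostly on the opposite strand, such as Psmb7 with Nek6 and Psmd13 with Sirt3, and 12 share a stretch of at least 200 bases with at least 95% identity with a gene elsewhere. Apart from the Psme2 pair, these were mostly genes with few counts, and Psmd11 shared 1503 bases with A730017L22Rik, which had a mean count of 299. How reads with several alignments were counted, and whether strand was used, is not given in the sources used here.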

How the data were processed

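Messenger RNA of splenic monocytes was sequenced from stranded libraries, 3 Con and 3 Van. The authors aligned reads with HISAT2 2.2.1 to GRCm38, used SAMtools 1.9, estimated FPKM with StringTie 2.1.3 and Ballgown, and deposited these FPKM values, scaled to transcript length and library size. The authors converted them with tximport to expected counts per gene, which are not normalized. The annotation release is not given in the sources used here. Total counts of 43383919 to 61834407 set the counting precision, but a count is not 1 fragment: 52.3% to 55.0% of the nonzero values became whole (within 0.05) when multiplied by 75, a length shorter than the stated reads. Read as covered bases divided by 75, the totals would stand for 16.3 M to 23.2 M fragments.

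Expected counts were rounded and tested in R 4.3.3 with edgeR 4.0.16 (quasi-likelihood test, TMM, filter at a minimum count of 10, group as the only term), with Benjamini-Hochberg adjustment over all 16138 genes tested and calls at an adjusted p of at most 0.05. CPM uses TMM-scaled library sizes, and 95% intervals come from this fit. Ratios of FPKM were compared by exact two-sided permutation tests. Alternatives were DESeq2 1.42.0, RLE size factors, library size alone, other filters, a replicate block, limma 3.58.1 on FPKM as log2(FPKM + 1) or log2(FPKM + 0.1), quantile-normalized, a single identifier per symbol, the fragment scale (counts times 0.375) and leaving out each library. Values of single libraries were given for called genes, the 3 highest and 3 lowest log2 fold changes, the catalytic subunits, PA28 and the highest and lowest genes by FPKM. Other genes without overlap, Adrm1 and Ubqln1 were added after their values were seen. The members, classes, pathway and marker lists were chosen with earlier results of these data known. The test was also run on simulated counts, with planted changes larger than those of the proteasome genes. Changes as small as theirs were not simulated. Promoter windows are RefSeq's for GRCm38.p6, and coordinates are from GENCODE M21. The third group of the study was not analysed here.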

Additional observations from a re-analysis of the deposited data

How the results depend on the processing

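The number of genes called over all genes depended on the method. It was 322 in edgeR, 965 with DESeq2 (979 with its filter set for 0.05, chosen after seeing the data), 110 with a replicate block, 391 with at least 10 counts in every library, 375 on the fragment scale, 40 with limma on log2(FPKM + 1) values, 64 with log2(FPKM + 0.1), and 21 to 136 in the fits that left out one library. The number of proteasome genes called was 0, and 1 (Psme4) with both DESeq2 settings, with at least 10 counts in every library and on the fragment scale, and 0 under all other settings, the 6 fits without one library and minimum mean counts of 10 or 500 among them. The number higher in Van was 13 to 24 when one library was left out (13 without Van replicate 3), the median log2 fold change of the proteasome genes -0.0531 to 0.0074, that of the 19S cap -0.0029 to 0.0566, that of the 20S core -0.10 to -0.04 and that of the PA28 activators -0.26 to -0.12. Psmb6, at 0.0018 in edgeR, turned to -0.0103 and -0.0105 with limma and -0.0024 on the fragment scale, and lay between -0.0337 and 0.0578 when one library was left out. In all, 17 of the 46 proteasome genes (Psma6, Psmb1, Psmb3, Psmb4, Psmb6, Psmc2, Psmc3, Psmc6, Psmd3, Psmd6, Psmd9, Psmd11, Psmd12, Psmd13, Psmg2, Psmg3 and Psmg4) turned sign in 1 or more of the fits without one library. Each had a log2 fold change of at most 0.105 in size, and 3 of them (Psmb6, Psmd9 and Psmd12) also turned under another setting. The other 29 kept their sign under every setting run. Psmb8, Psmb9, Nfe2l1 and Nfe2l2 kept theirs too, and Nfe2l2 passed the threshold only with DESeq2. Over all genes tested, same-numbered libraries did not deviate together (correlations of the deviations 0.01, 0.0079 and -0.05). With the replicate block, 0 proteasome genes were called, 22 were higher in Van, and the adjusted p of Psme4 was 0.134. The block lowered the standard error of Psme1 from 0.10 to 0.06 and that of Psme2 from 0.11 to 0.06. Their edgeR adjusted p with the block was 0.197 and 0.160, and replicate 2 was the lowest library of each group in both. The standard error of Psmb10 also fell, and those of Psme4, Psme2b and Psmd7 rose. Counts of PA28 without Psme2b, of the cap with Psmd5, Psmd9 and Psmd10, and of the core without Psmb10 gave medians of -0.19, 0.04 and -0.05. Psma8, with the fewest counts, had the widest interval.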
